A study of Mus musculus with 9 samples.

Results

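Spo11, Dmc1, Brca2, Msh4, Msh5, Mlh3 and Msh6 are 7 autosomal genes of meiotic recombination and mismatch repair. They were taken by name from the UMI count table of 28052 genes, where all 7 were found. Their transcript levels were compared among XX, XO and XY mouse oocytes in the growth phase, with 3 samples per genotype and 9 in all. XY females carried the Y chromosome TIR and came, like the XX females that were their littermates, from crosses of B6.YTIR males with B6 females. XO females came from crosses of Paf carrier males with B6 females, and the Paf line had been moved from C3H/HeSnJ to B6 by backcrossing. XX oocytes were thus littermate controls for XY and not for XO oocytes. The labels give C57BL/6 as strain and 18 days post partum as age of every sample. Each sample pooled 30 oocytes, of which 10 measured 50–55 μm across and 20 measured 55–60 μm, taken from dissociated ovaries in biological triplicate. How many animals gave a pool is not given in the sources used here.

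Meiotic recombination begins with programmed DNA double-strand breaks, which SPO11 makes. DMC1, a meiotic relative of the bacterial recombinase RecA, pairs the broken end with the homologous chromosome, and BRCA2 loads DMC1 onto the single strand. MSH4 and MSH5 form a dimer that stabilizes recombination intermediates, and MLH3 belongs to the nuclease that cuts them into crossovers. MSH6 takes part in recognizing mismatched bases after replication. In females, recombination takes place in fetal ovaries, so that growing oocytes have passed this stage and are arrested later in meiotic prophase.

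Transcripts were counted by Smart-seq3, which tags the 5′ end of each molecule with a molecular barcode (UMI). A count therefore does not grow with transcript length, and levels of different genes can be set side by side. Normalized CPM are UMIs divided by the gene total of the sample and by a factor from ERCC spike-in RNAs. The 9 samples had between 2130145 and 3157338 UMIs on genes, and ERCC RNAs made up 0.204 to 0.862% of UMIs. XO1 and XY1 stood apart. The mitochondrial transcript mt-Rnr2 took 6.13% of UMIs in XO1 and 5.15% in XY1, whereas the most abundant gene took 1.23 to 2.69% in the others. All 11 oocyte markers were found in every sample, with summed levels of 16076 to 26998 normalized CPM. Among them, Zp1, a zona pellucida gene, differed between XO samples, with 14.0 normalized CPM in XO1, 758.9 in XO2 and 2166 in XO3. Oosp1, another of these markers, went the other way, with 9137 normalized CPM in XO1, 2494 in XO2 and 2495 in XO3. The 7 granulosa markers analysed here summed to 48.0 to 92.1 normalized CPM. Of these, Nr5a2 (41 to 114 UMIs), Kitl (11 to 63), Cyp19a1 (7 to 147) and Inhba (2 to 7) were present in every sample. Fshr had 0 to 8 UMIs, whereas Fst and Inha had at most 1 UMI in any sample. The 5 theca and stroma markers summed to 0.7003 to 4.99 normalized CPM. The 4 markers of the Y chromosome summed to 288 to 406 normalized CPM in XY samples and to at most 1.69 in XX and XO samples.

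The members differed widely in transcript level. Brca2 was highest, with a mean of 122.98 normalized CPM over the 9 samples and a level above 95.7% of all genes in the table. Msh6 came next with 76.1 normalized CPM. Msh4, Msh5 and Mlh3 followed with 22.7, 16.8 and 16.6 normalized CPM. Dmc1 had 6.41 and Spo11 0.130 normalized CPM. Brca2 exceeded Msh6, Msh6 exceeded Msh4, Msh5 and Mlh3, each of these exceeded Dmc1, and Dmc1 exceeded Spo11 in 9 of 9 samples. Msh4, Msh5 and Mlh3 changed places between samples. Msh4 was above Msh5 in 6 samples and below it in 3, and Msh5 was above Mlh3 in 5 and below it in 4. The plot of levels by genotype shows each sample.

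**Figure D1:**
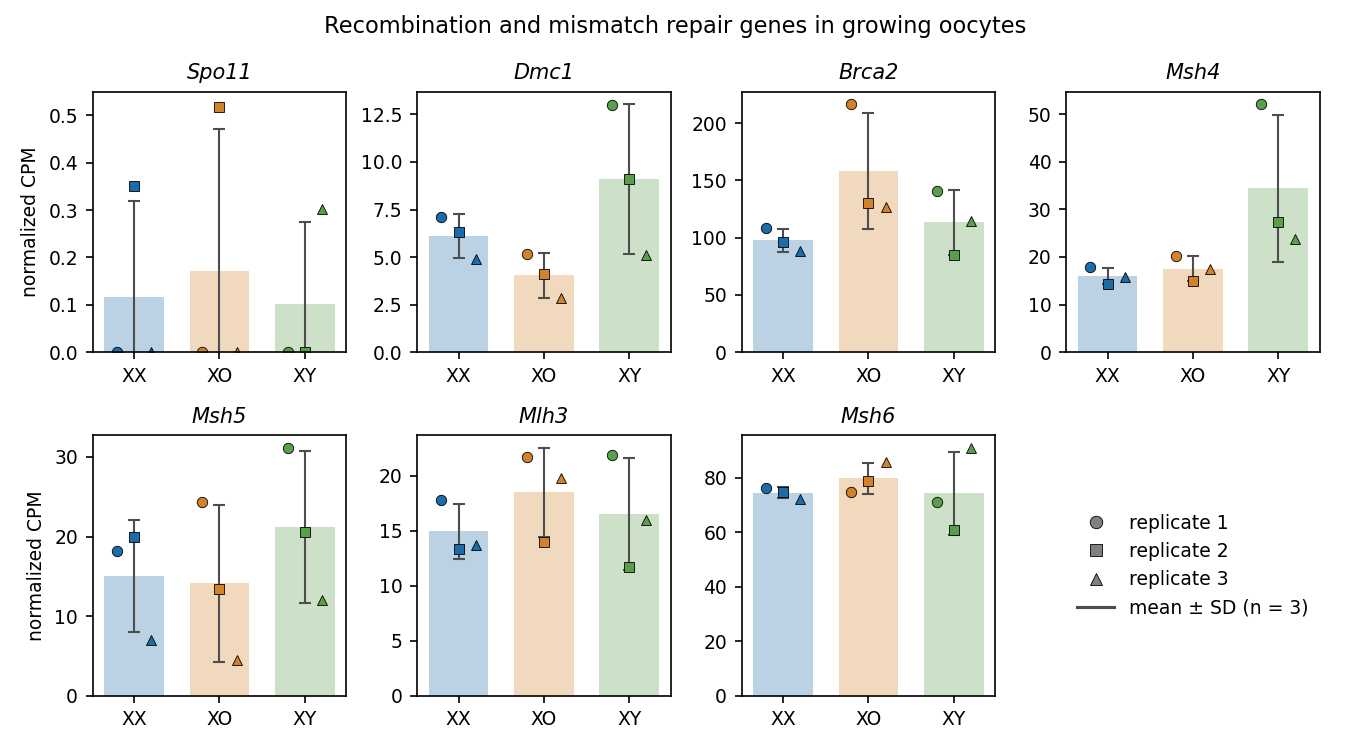
Normalized CPM of the 7 genes (vertical axes, each from 0) in XX, XO and XY oocytes. Points are samples with a symbol per replicate, bars are means and lines are the SD of 3 samples. Msh4 in the 3 XY samples (23.8 to 52.1) lies above all XX and XO samples (14.4 to 20.2), whereas Spo11 rests on 1 UMI in each genotype.

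In XY oocytes Msh4 was higher than in XX and XO oocytes, Dmc1 was higher than in XO oocytes, and no other member was called in edgeR's quasi-likelihood test over 10993 genes. These calls rest on the threshold of the study, an unadjusted p of 0.05. With limma-voom and DESeq2 on spike-in factors, which called 38.5 and 10.2% of their genes, Brca2 passed it too in XX against XO. After Benjamini-Hochberg adjustment in edgeR's test no member was called. Of all genes tested, 0% were then called in XX against XO, 0.0819% in XX against XY and 0.0364% in XY against XO. Spo11 did not pass the filter on low counts, which left 6 members tested. In pooled oocytes, fewer transcribing cells cannot be told apart from less RNA per cell. As background, 18.1% of all genes tested were called in XX against XO, 5.8% in XX against XY and 9.93% in XY against XO. Of the 6 members, 0, 1 and 2 were called in these comparisons. The median log2 fold change of all genes tested was -0.46 in XX against XO, -0.19 in XX against XY and -0.30 in XY against XO, and that of the 6 members was -0.12, -0.35 and 0.24. By the median difference, XX oocytes were thus lowest, XY oocytes intermediate and XO oocytes highest on this scale. Scaled to total ERCC UMIs the medians of XX against XO and XX against XY turned to 0.42 and 0.49, so that the order of XX oocytes depends on the scaling. The study reported the other direction for XO oocytes, with many autosomal genes lower there than in XX and XY oocytes. Its limma fit held surrogate variables as covariates. With limma-voom and 1 surrogate variable here, 625 genes were called higher and 3602 lower in XX against XO. Why the directions differ was not tested. Each comparison shares its samples with the other two.

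**Figure D2:**
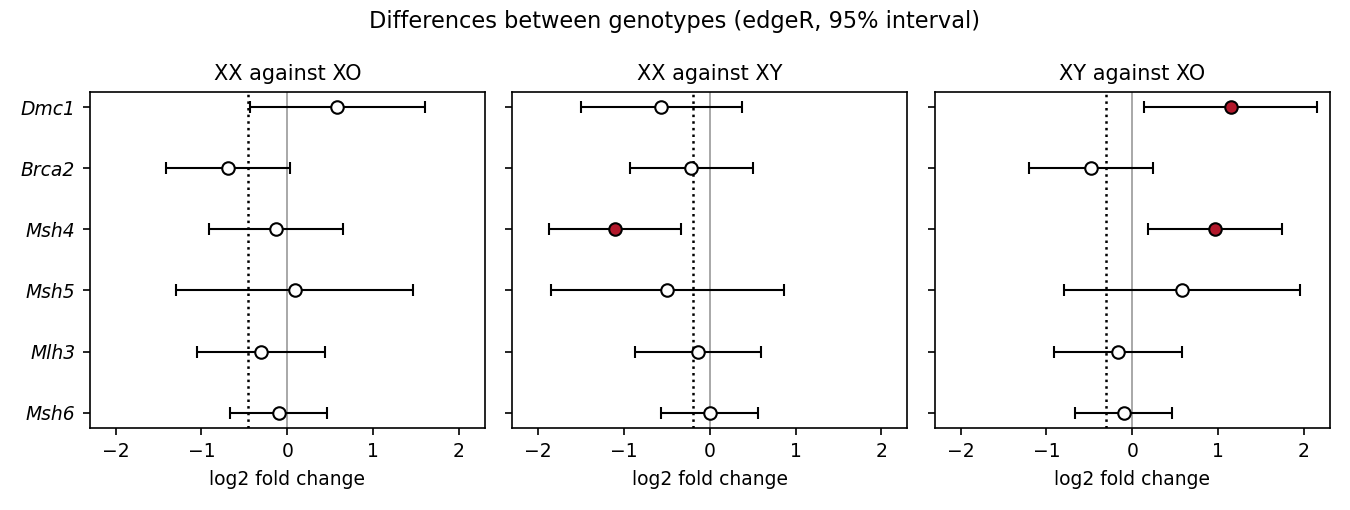
Log2 fold changes (horizontal axes) of the 6 tested genes in the 3 comparisons, with 95% intervals from edgeR. Filled points have an unadjusted p below 0.05, and the dotted line is the median of all genes tested. Msh4 is filled in XX against XY (-1.10) and in XY against XO (0.96), and Dmc1 in XY against XO (1.15).

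To show annotated promoters of members, the 250 bases before the RefSeq start (GRCm38.p6) are given for Dmc1, which was called, and for Brca2 and Msh6, the most abundant. Where transcription starts in these oocytes was not examined. RefSeq windows matched 6 of the 7 members, and Spo11 had no entry. The RefSeq start of Msh4 lies 1247 bases inside the gene as deposited, so that its window is not shown. Sequences run 5′ to 3′ on the strand of the gene. Capitals mark matches on either strand to a GC box (GGGCGG), an E2F motif (TTTNNCGC) or a cAMP response element (TGACGTCA).

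Dmc1, chr15:79605110-79605359, minus strand: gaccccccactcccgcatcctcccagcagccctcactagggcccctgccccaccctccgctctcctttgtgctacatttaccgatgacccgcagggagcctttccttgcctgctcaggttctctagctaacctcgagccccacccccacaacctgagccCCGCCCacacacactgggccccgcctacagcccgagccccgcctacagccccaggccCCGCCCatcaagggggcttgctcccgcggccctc
Brca2, chr5:150522371-150522620, plus strand: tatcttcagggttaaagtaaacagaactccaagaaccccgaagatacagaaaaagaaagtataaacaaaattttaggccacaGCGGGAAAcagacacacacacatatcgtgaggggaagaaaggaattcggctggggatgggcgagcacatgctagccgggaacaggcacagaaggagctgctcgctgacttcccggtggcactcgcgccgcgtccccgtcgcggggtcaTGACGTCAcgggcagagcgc
Msh6, chr17:87974800-87975049, plus strand: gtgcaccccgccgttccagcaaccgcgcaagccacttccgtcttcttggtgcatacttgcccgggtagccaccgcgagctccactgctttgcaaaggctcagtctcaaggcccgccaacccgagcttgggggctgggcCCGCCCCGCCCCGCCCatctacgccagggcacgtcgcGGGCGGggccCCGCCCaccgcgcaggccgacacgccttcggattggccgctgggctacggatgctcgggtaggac

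The Dmc1 window was 68.8% GC and held 2 GC boxes. That of Brca2 was 54.4% GC and held an E2F match 168 bases and a cAMP response element 20 bases before the start. The Msh6 window was 70.8% GC, held 27 CpG and had 5 GC boxes, some of them overlapping. Over 32851 windows of the same length from all genes, the median was 52.4% GC and 6 CpG, and 32.7% held a GC box, 4.28% an E2F match and 1.55% a cAMP response element. Also searched were an E-box (CACGTG), found in none of the 3 windows and in 6.02% of all, a CCAAT box, found for Msh6 and in 33.8%, and a TATA box (TATAAA), found for Brca2 and in 12.4%. A match is a description of letters and not a sign of binding.

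Spo11, which makes the double-strand breaks, was at the edge of detection. It lies on chromosome 2 (172977700 to 172993576, GRCm38). XX2, XO2 and XY3 had 1 UMI each, and no UMI was counted in the other 6 samples. For each genotype, 1 UMI has an exact Poisson 95% interval of 0.0253 to 5.57 UMIs, which covers counting error only. No difference among genotypes was detectable at this depth.

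Dmc1 lies on chromosome 15 (79561500 to 79605084, GRCm38) and was scarce but present in every sample. XX samples had 7.12, 6.30 and 4.87 normalized CPM. XO samples had 5.18, 4.14 and 2.82 normalized CPM. XY samples had 13.01, 9.12 and 5.13 normalized CPM. XY1 and XY2 were above all other samples, whereas XY3 was just below XO1, so that XY and XO overlapped. In UMIs, the genotypes had totals of 54 in XX, 23 in XO (exact Poisson 95% interval 14.6 to 34.5) and 73 in XY (57.2 to 91.8). In XY against XO, the log2 fold change was 1.15 (SE 0.45, edgeR p 0.0296, adjusted p 0.485), and 1.69% of all genes tested were called higher in this comparison. The call was lost when XO2, XO3, XY1 or XY2 was left out, with p-values of 0.0646, 0.0931, 0.123 and 0.0623 in edgeR. It was also lost when scaled to total ERCC UMIs (log2 fold change 1.14, edgeR p 0.104) and without XO1 and XY1 together (1.02, edgeR p 0.0760). In XX against XO the log2 fold change was 0.58 (SE 0.45, edgeR adjusted p 0.485), and in XX against XY it was -0.56 (SE 0.42, edgeR adjusted p 1.00). In the batch-regressed log2 values of the authors, Dmc1 was 2.79 to 2.94 in XX, 1.79 to 2.41 in XO and 2.69 to 3.43 in XY samples.

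Brca2 lies on chromosome 5 (150522630 to 150570329, GRCm38). XX samples had 108.3, 96.3 and 88.4 normalized CPM. XO samples had 216, 130.3 and 127 normalized CPM. XY samples had 141, 84.6 and 115 normalized CPM. Every XO sample was above every XX sample, a pattern found in 13.6% of all genes tested, and XO1 was above all others. The log2 fold change in XX against XO was -0.69 (SE 0.32), with an edgeR p of 0.0577 and an adjusted p of 0.286. It was -0.23 relative to the median of all genes. When XO1 was left out the log2 fold change was -0.40 (edgeR p 0.181). The threshold was passed with DESeq2 on the same spike-in factors (p 0.0418) and with limma-voom and 1 surrogate variable from sva (adjusted p 0.00244), and DESeq2 with its own size factors called no member here. After adjustment, that limma-voom fit called 2809 of the 10993 genes tested in XX against XO. Scaled to total ERCC UMIs, the direction of Brca2 turned, with a log2 fold change of 0.24. Neither XX nor XO differed from XY past the threshold, with log2 fold changes of -0.22 (SE 0.32, edgeR adjusted p 1.00) in XX against XY and -0.48 (SE 0.32, edgeR adjusted p 0.597) in XY against XO. In the batch-regressed values, Brca2 was 7.01 to 7.14 in XO and 6.66 to 6.84 in XX samples.

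Msh4 lies on chromosome 3 (153857149 to 153906138, GRCm38). XX samples had 17.8, 14.4 and 15.8 normalized CPM. XO samples had 20.2, 14.99 and 17.5 normalized CPM. XY samples had 52.1, 27.3 and 23.8 normalized CPM. All XY samples were above all XX and XO samples, which 1.96% of the genes tested were too, and XY1 was the highest. The UMIs before scaling showed the same order, with 112, 84 and 79 in the XY samples and at most 52 in any other. In XX against XY, the log2 fold change was -1.10 (SE 0.34, edgeR p 0.0100, adjusted p 0.570), and 4.39% of all genes tested were called lower in XX. In XY against XO, it was 0.96 (SE 0.35, edgeR p 0.0201, adjusted p 0.485). Calls higher in XY than in both others were made for 0.864% of the genes tested. XX and XO did not differ past the threshold, with a log2 fold change of -0.13 (SE 0.35, edgeR adjusted p 0.850) and a 95% interval of -0.92 to 0.65.

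The size of the Msh4 difference depended on XY1. Without it the log2 fold change was -0.68 in XX against XY (edgeR p 0.0528) and 0.54 in XY against XO (edgeR p 0.110). Without XO1 and XY1 together, it was -0.68 in XX against XY (edgeR p 0.0260) and 0.66 in XY against XO (edgeR p 0.0536). Leaving out XO2 also ended the call in XY against XO (edgeR p 0.0664). With limma-voom and the surrogate variable, the adjusted p was 0.00916 in XX against XY and 0.0459 in XY against XO. After adjustment, that fit called 1099 and 1377 of the 10993 genes tested in these comparisons. Scaled to total ERCC UMIs, the direction of Msh4 stayed but the log2 fold changes were -0.19 (edgeR p 0.773) and 0.98 (edgeR p 0.153). In the batch-regressed log2 values, XY samples were at 4.75 to 5.53, XX samples at 3.99 to 4.38 and XO samples at 3.84 to 4.06.

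**Figure D3:**
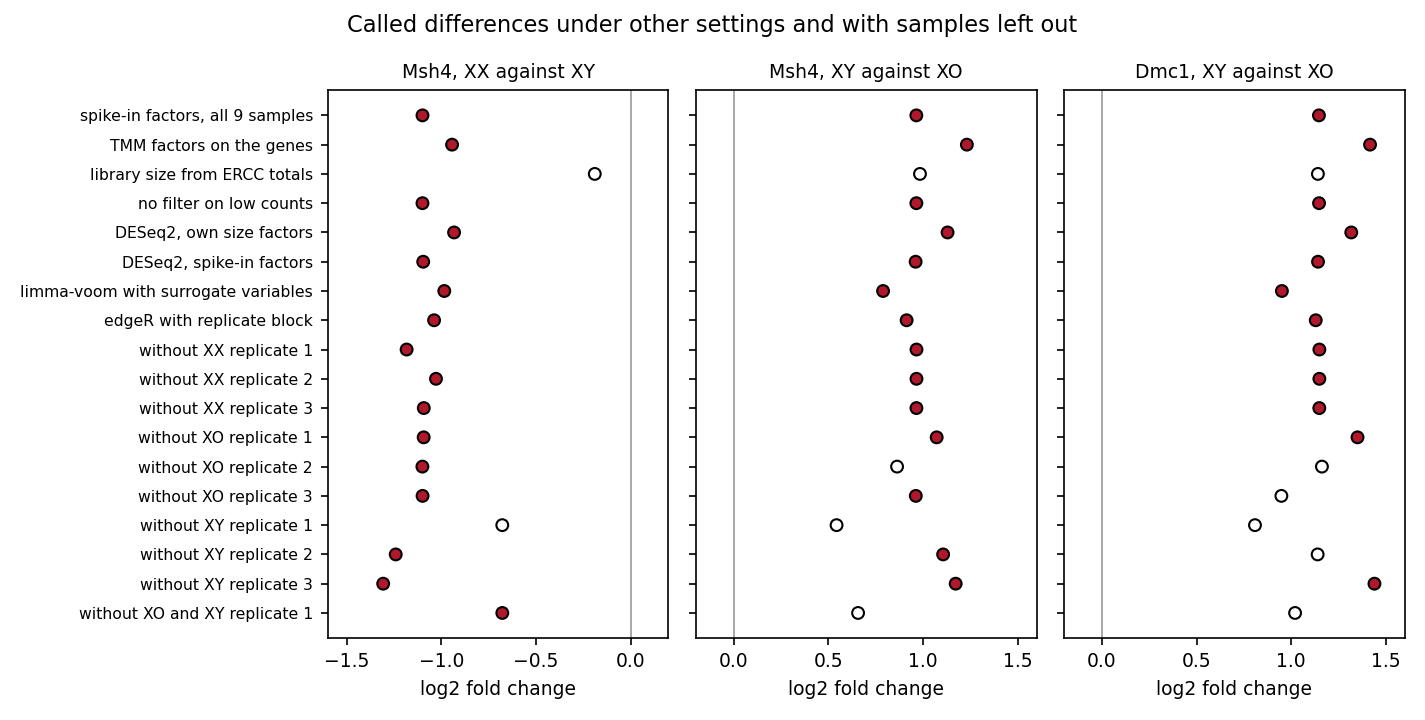
Log2 fold changes (horizontal axes) of the 3 called differences under each setting or with samples left out (rows). Filled points have an unadjusted p below 0.05. All points keep the sign of the value with all 9 samples, and without XY1 the values of Msh4 shrink to -0.68 and 0.54.

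Msh5, the partner of Msh4, lies on chromosome 17 (35028605 to 35046745, GRCm38) and varied more within genotypes than between them. XX samples had 18.2, 20.0 and 7.01 normalized CPM, XO samples 24.3, 13.4 and 4.52, and XY samples 31.1, 20.5 and 12.1. Replicate 3 was the lowest of each genotype. The log2 fold changes were 0.08 (SE 0.62) in XX against XO, -0.49 (SE 0.60) in XX against XY and 0.58 (SE 0.61) in XY against XO, with edgeR adjusted p-values of 0.949, 1.00 and 0.728. The intervals were wide, reaching from -1.85 to 0.86 in XX against XY, and include the log2 fold change of Msh4. The ratio of Msh4 to Msh5 UMIs was 0.719 to 2.26 in XX, 0.830 to 3.88 in XO and 1.33 to 1.98 in XY samples, so that the ranges of the pair overlapped.

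Mlh3 lies on chromosome 12 (85234520 to 85270599, GRCm38). It ranged from 13.3 to 17.8 normalized CPM in XX, from 14.0 to 21.7 in XO and from 11.7 to 21.8 in XY samples, and all ranges overlapped. Replicate 1 was the highest of each genotype. The log2 fold changes were -0.31 in XX against XO, -0.14 in XX against XY and -0.17 in XY against XO (SE 0.33 in each), and edgeR's adjusted p was 0.617 or more.

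Msh6, the member that acts in mismatch repair, lies on chromosome 17 (87975050 to 87990883, GRCm38) and varied least. XX samples had 76.2, 74.6 and 72.2 normalized CPM, XO samples 74.6, 78.6 and 85.8, and XY samples 71.1, 60.9 and 90.9. Its means were 74.3 ± 2.02 for XX, 79.6 ± 5.70 for XO and 74.3 ± 15.2 for XY oocytes (SD, n = 3). The log2 fold change in XX against XY was 0.00 with a 95% interval of -0.56 to 0.56, and in XX against XO it was -0.10 with an interval of -0.66 to 0.47. In the batch-regressed log2 values, Msh6 was 5.84 to 6.03 in XO and 6.45 to 6.49 in XX samples, an order that normalized CPM did not show. The last bases of Msh6 overlap Fbxo11 on the opposite strand, and reads were counted with regard to strand.

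Other genes of the same pathways were taken from lists by role, chosen with results of these data known. Of 71 genes found, 58 were tested. In XX against XO, 17 were called lower in XX and 0 higher, where 16.7% of all genes were called lower and 1.4% higher. Their median log2 fold change was -0.75. In XX against XY, 3 were lower in XX and 0 higher, where 4.39% of all genes were called lower and 1.41% higher, and the median was -0.29. In XY against XO, 1 was higher and 6 were lower in XY, with a median of -0.38, where 8.24% of all genes were called lower. With the replicate number as a block, 17 were called in XY against XO, 2 higher and 15 lower. The share of all genes called then rose to 16.6% from 9.93%. What the replicate numbers mark is not given, and pairing by number was read only from these same data. No pathway gene passed edgeR's adjusted threshold in any comparison. Scaled by TMM factors on the genes themselves, the pathway calls were 1 higher and 4 lower in XX against XO, and 4 higher and 2 lower in XY against XO. The calls of all genes then split into 649 higher and 662 lower in XX against XO, beside 154 and 1832 with spike-in factors. Scaled to total ERCC UMIs, no pathway gene was called in any comparison, and the calls of all genes in XX against XO were 290 higher and 53 lower.

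**Figure D4:**
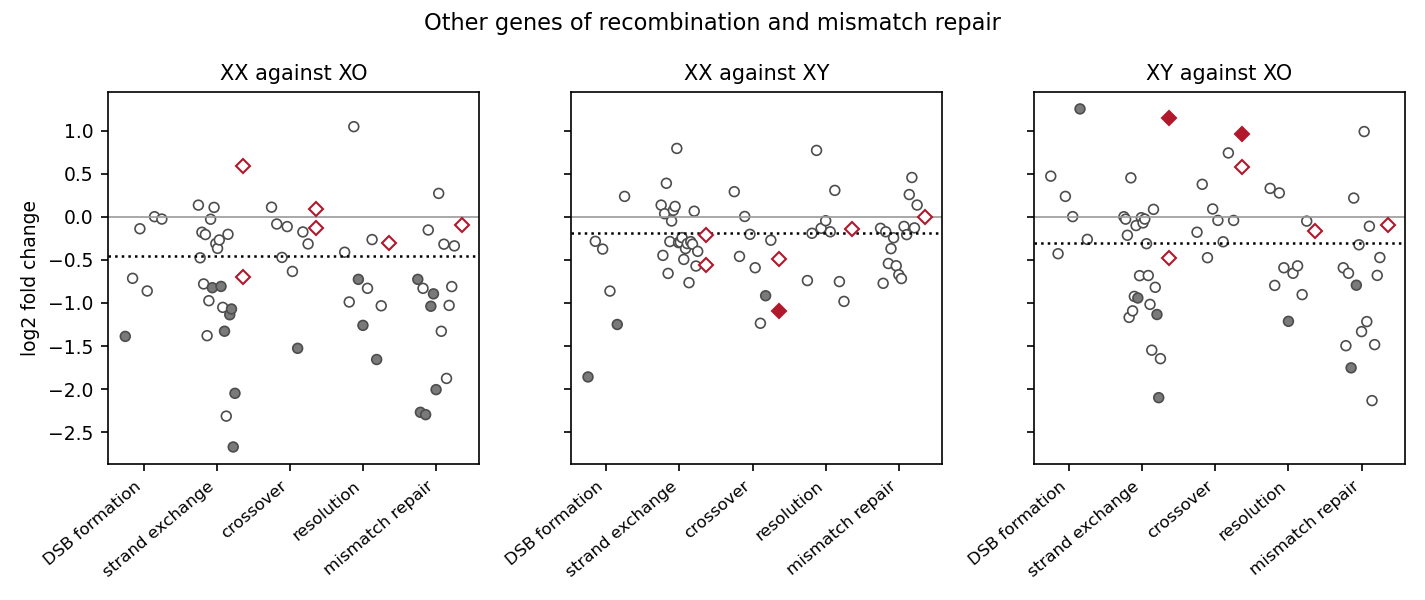
Log2 fold changes (vertical axis) of 58 other pathway genes (circles) by role, with Exo1 shown under its 2 roles, and of the 6 tested members (diamonds) in the 3 comparisons. Filled symbols have an unadjusted p below 0.05, and the dotted line is the median of all genes tested. Called pathway genes lie below 0 except Mei1 in XY against XO (1.25).

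Among genes of break formation, Ankrd31 and Mei1 were called. Ankrd31, which places breaks on the region shared by the X and Y chromosomes, had 2.85, 2.101 and 2.13 normalized CPM in XX samples. It had 9.32, 5.17 and 3.95 in XO samples and 12.1, 7.16 and 6.64 in XY samples. Its XX levels rest on 6 to 8 UMIs per sample. XX samples were below all XO samples, as in 13.6% of genes tested, and below all XY samples, as in 11.7%. The log2 fold changes were -1.39 (SE 0.47, edgeR adjusted p 0.211) against XO and -1.86 (SE 0.46, edgeR adjusted p 0.384) against XY, and the former was lost without XO1 (edgeR p 0.0868). Mei1, which is required for break formation, had 10.2, 10.7 and 12.98 normalized CPM in XY samples and 3.05 to 7.48 in XX and XO samples. It was called in XX against XY (log2 fold change -1.25, SE 0.43, edgeR adjusted p 0.646) and in XY against XO (1.25, SE 0.44, edgeR adjusted p 0.485). Each Mei1 call was lost in 3 of 9 fits that left out 1 sample, without XX2, XX3 or XY3 in the former and XO2, XO3 or XY3 in the latter. Like Msh4, Mei1 was thus above the other 6 samples in every XY sample, the pattern of 1.96% of genes tested.

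In strand exchange, 7 of 22 genes tested were called lower in XX than in XO oocytes, beside 16.7% of all genes tested. Swi5, an accessory factor of strand exchange, had 17.5, 11.9 and 24.7 normalized CPM in XX samples, and 17.6, 105 and 222 in XO samples. XO2 and XO3 were high while XO1 was within the XX range. The XY samples had 20.0, 18.9 and 41.4 normalized CPM. The log2 fold change was -2.67 (SE 0.77, edgeR adjusted p 0.203) in XX against XO and -2.10 (SE 0.75, edgeR adjusted p 0.485) in XY against XO. Rpa1, which coats single-stranded DNA, followed with 36.8, 94.1 and 132.7 normalized CPM in XO and 26.6 to 43.0 in XX samples (log2 fold change -1.33, edgeR adjusted p 0.214). Sem1, a small partner of BRCA2, had a log2 fold change of -1.14 (edgeR adjusted p 0.203). Batch-regressed means in XX and XO samples were 4.68 and 5.28 for Swi5, 5.51 and 5.63 for Rpa1, and 3.99 and 4.33 for Sem1. The ranges of Rpa1 overlapped in these values. Sfr1, the partner of Swi5, and Rad51ap1, which stimulates strand exchange, were lower in XY than in XO oocytes, with log2 fold changes of -1.13 (SE 0.47) and -0.94 (SE 0.34), with edgeR adjusted p-values of 0.491 and 0.485. The Sfr1 call was kept in 2 of 9 fits that left out 1 sample, and without XO3 its log2 fold change was -0.47 (edgeR p 0.240). That of Rad51ap1 was kept in 7 of 9, and lost without XO3 or XY2. Rpa1 lost its call without XX2 or XO3, Sem1 without XX2, and Swi5 in XY against XO without XO3, XY1 or XY2.

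In the crossover group, 1 of 8 genes was called lower in XX than in XO oocytes, beside 16.7% of all genes tested. This gene was Rnf212, which marks sites of crossovers, with a log2 fold change of -1.53 (SE 0.65, edgeR adjusted p 0.263). Its levels were 87.0 normalized CPM in XO1, 416 in XO2 and 482 in XO3, and 93.5 to 139 in XX samples. In the batch-regressed log2 values, Rnf212 averaged 7.30 in XX and 7.18 in XO samples, the other direction. Rnf212b, its relative, was lower in XX than in XY oocytes (log2 fold change -0.92, edgeR adjusted p 0.834). Leaving out 1 sample at a time, both were kept in 3 of 9 fits, Rnf212 without XO1, XY1 or XY3 and Rnf212b without XX1, XO1 or XO2, with edgeR p-values of up to 0.131 and 0.146. In resolution, 3 of 9 genes were called lower in XX than in XO oocytes, beside the same 16.7% of all genes. Gen1 and Slx4, a nuclease and a nuclease scaffold, had log2 fold changes of -1.26 and -1.66, and Exo1, an exonuclease of both resolution and mismatch repair, of -0.73, which turned to 0.22 when scaled to total ERCC UMIs. In the batch-regressed values, Slx4 went the other way, with means of 2.16 in XX and 2.04 in XO samples. Those of Gen1 were 3.75 and 4.63, and those of Exo1 5.50 and 5.54. Slx4 was kept in 4 of 9 fits that left out 1 sample, and lost without XX1, XX2, XX3, XO2 or XO3. Exo1 was kept in 5 of 9, and lost without XX1, XX2, XX3 or XO3. Gen1 was also lower in XY than in XO oocytes, with a log2 fold change of -1.21 (SE 0.41, edgeR adjusted p 0.485), lost without XY2 or XY3.

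In mismatch repair, 6 of 15 genes were called lower in XX than in XO oocytes, beside 16.7% of all genes tested. Pms2, a nuclease of this repair, had 7.25, 34.6 and 54.8 normalized CPM in XO samples and 6.30 to 9.14 in XX samples (log2 fold change -2.01, SE 0.63, edgeR adjusted p 0.203). Pms1 had 34.7, 30.5 and 38.4 normalized CPM in XO and 15.8 to 21.01 in XX samples (log2 fold change -0.89, SE 0.27, edgeR adjusted p 0.203). Its XX samples were below its XO samples without overlap, as in 13.6% of all genes tested. Pcna, the replication clamp, had a log2 fold change of -1.04 (SE 0.35, edgeR adjusted p 0.208), and was lower in XY than in XO oocytes too (-0.79), a call kept in 2 of 9 fits that left out 1 sample (XO2 or XY1), with an edgeR p of up to 0.146 in the others. The Pcna call in XX against XO was lost without XX2 (edgeR p 0.0520).

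The pathway counts, like those of all genes, depended on XO1 in particular. Without it, 32 pathway genes were called in XX against XO, 9 in XX against XY and 28 in XY against XO. The shares of all genes called then rose to 36.9, 11.1 and 32.1%, from 18.1, 5.8 and 9.93%. Without XO1 and XY1, the pathway counts were 34, 8 and 25, beside 41.7, 15.7 and 27.8% of all genes. XO1 was low in Swi5, Rpa1, Rnf212 and Pms2, as in Zp1 above, and XO2 and XO3 were high in all of them. Other genes went the other way. XO1 was the highest XO sample in Brca2, Ankrd31 and the oocyte markers Oosp1, Ddx4 and Dazl. The part of oocyte stage or library quality in these values was not tested. Leaving out XX1, XX2, XX3 or XO3 left 9, 7, 11 and 7 calls in XX against XO, beside 11.1, 8.67, 14.3 and 9.31% of all genes. Leaving out XX3 or XY3 left 1 call in XX against XY, beside 3.55 and 4.25% of all genes. In XY against XO, 1 call was left without XO3, 2 without XY2 and 12 without XY3. The shares of all genes were then 3.74, 3.86 and 13.1%.

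Over the 9 samples, the genes with levels most like those of each member were ranked by Pearson's coefficient of log2(normalized CPM + 1) among genes that averaged 10 normalized CPM or more. Plxnc1 (0.94) and Serpinb12 (0.93) were most like Msh4. Cnot2 (0.95) and Sptssb (0.94) were most like Dmc1, and Fam117b and Mpp5 (0.98 each) most like Brca2. For Msh5 they were Nrg3 (0.96) and Nucks1 (0.95), for Mlh3 Pls1 (0.97) and Herc1 (0.96), and for Msh6 Slain1 (0.96) and Axin1 (0.95). These are the highest of 7269 or 7270 coefficients from 9 samples that share libraries, and are given as a description.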

How the data were processed

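RNA of 9 pools of oocytes was analysed, 3 each of XX, XO and XY, grouped by the sample labels. The authors made Smart-seq3 libraries, aligned reads with Hisat2 to GRCm38, kept reads of 5′ exons and deposited UMI counts per gene with 79 ERCC spike-ins. They also deposited a signal called normalized CPM, which equals the counts times a constant per sample, and log2 values after regressing out batch effects with cleaningY (jaffelab). The log2 values were used as a description only.

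Counts were tested with edgeR 4.0.16 (quasi-likelihood, filterByExpr by genotype, 1 fit over 9 samples, gene totals times the TMM factors of the ERCC counts), two-sided, with an unadjusted p of 0.05 as threshold and Benjamini-Hochberg adjustment over 10993 genes. In simulated counts with 200 genes changed by a log2 of 2, from 87.7% (lowest of the 3 comparisons) to 90.0% (highest) of them were called. The largest log2 fold change of a member was 1.15, and recovery of changes of that size was not simulated. Counts were drawn gene by gene, without deviations that genes of a sample share. Alternatives used DESeq2 1.42.0, limma 3.58.1 with sva 3.50.0 (1 surrogate variable), other scalings, no filter, a replicate block and samples left out.

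The members, lists and tests were chosen with earlier results of these data known. By rule, all members are named, with up to 3 called genes per list and comparison (smallest p) and 2 genes most like each member. Values of a few pathway genes are not reported here, though these are in the counts. The oocyte, granulosa, theca and stroma, and Y chromosome markers are given in the report. The 5 blood markers, with 3 granulosa and 2 stroma markers, were looked up by name and not found among the genes counted. No 2 samples of a genotype agreed within counting noise. Counting intervals are exact Poisson 95% intervals and cover counting error only. Deviations of XY and XO samples with the same number correlated at 0.83, 0.28 and 0.77 across genes, which was read as a pairing by number, on no other evidence, although XO2 correlated more with XY3 (0.72). Promoters are from RefSeq (GRCm38.p6), and gene positions are those deposited.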

Additional observations from a re-analysis of the deposited data

How the results depend on the processing

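The depth limits Spo11, and 3 pools per genotype limit the rest. The Msh4 calls kept their direction in every setting and Dmc1 in XY against XO did too. Among differences that were not called, each of the 6 tested members turned in some comparison with the scaling. With ERCC totals, 10 of the 18 log2 fold changes of members turned. In XX against XO, 1 member (Brca2) was called with DESeq2 on spike-in factors, with limma-voom and the surrogate variable, and with the replicate block. With edgeR, 0 were called in XX against XY with ERCC totals or after adjustment, and in XY against XO also 0 with ERCC totals, after adjustment, or without XO1 and XY1 (chosen after seeing the data). After adjustment limma-voom called Msh4 in both of these, and Brca2 in XX against XO and XY against XO. It then called 2809 of all genes in XX against XO, 1099 in XX against XY and 1377 in XY against XO. Before adjustment, limma-voom called 3 members in XY against XO, adding Brca2. Leaving out 1 sample at a time gave 0 to 1, 0 to 1 and 0 to 2 calls in the 3 comparisons.

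Log2 fold changes turned as follows, and where the cause is not the scaling itself it was not tested. In XX against XO, TMM factors gave 0.29 for Msh4, 0.11 for Mlh3 and 0.34 for Msh6. DESeq2 with its own factors gave 0.20, 0.0235 and 0.26 for these. ERCC totals gave 0.24 for Brca2, 0.80 for Msh4, 0.60 for Mlh3, 0.77 for Msh6 and 0.22 for Exo1. In XX against XY, ERCC totals gave 0.26 for Dmc1, 0.49 for Brca2, 0.14 for Msh5 and 0.60 for Mlh3. TMM factors gave 0.0196 and DESeq2 with its own factors 0.0431 for Mlh3, and DESeq2 with spike-in factors gave -0.000699 for Msh6. Without XO1 and XY1, Mlh3 was at 0.10 and Msh6 at -0.03. In XY against XO, TMM factors gave 0.10 for Mlh3 and 0.18 for Msh6, ERCC totals 0.0028 and 0.14, and DESeq2 with its own factors 0.0652 for Msh6. With samples left out, Msh5 in XX against XO ranged from -0.33 to 0.72, in XX against XY Mlh3 from -0.34 to 0.11 and Msh6 from -0.12 to 0.17, and in XY against XO Mlh3 from -0.41 to 0.0297 and Msh6 from -0.27 to 0.0248.

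TMM factors moved the median of all genes to -0.03, -0.04 and -0.02, and ERCC totals moved it to 0.42, 0.49 and -0.11. The number of all genes called, 1986, 638 and 1092, ranged over settings with all samples from 343 to 4227 in XX against XO, from 284 to 2580 in XX against XY and from 136 to 3093 in XY against XO. Pathway calls in XX against XO, 17 in the report, were 5 with TMM factors, 9 with DESeq2's own factors, 0 with ERCC totals and 26 without the filter. The shares of all genes called were then 11.9, 6.50, 3.12 and 14.1%. Fits without the filter tested 28051 genes and those with DESeq2 28046. Their pathway counts are thus not out of the 58 genes tested in the report. In XX against XY, 3 became 0 with ERCC totals, 5 without the filter, 5 with the block and 14 with the surrogate variable. The shares of all genes were then 2.58, 4.33, 9.16 and 23.5%. In XY against XO, 7 became 0 with ERCC totals, 17 without the filter, 14 with DESeq2 on spike-in factors, 17 with the block and 21 with the surrogate variable. Beside these, 1.24, 9.75, 5.77, 16.6 and 28.1% of all genes were called. Same-numbered XX samples did not deviate with XO and XY samples at every number (-0.45 and -0.06 for number 2), so the block is given only here for these comparisons. The block changed no other member call.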
